A study of Mus musculus with 39 samples.

Results

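The genes followed here encode the eukaryotic translation initiation factors (eIFs), the proteins that place a ribosome on an mRNA, together with their regulators. They are the genes of the deposited table whose symbol is Eif, a digit from 1 to 6 and then letters or digits only, with the sex-linked pair Eif2s3x and Eif2s3y left out. This rule gave 56 of 55487 genes, of which 55 had enough counts to be tested, and Eif2c5, annotated as a long intergenic noncoding RNA, did not. The choice of genes used no measured value. Eif2c5 had counts in 4 of 19 embryos.

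Initiation begins when eIF2 brings the initiator tRNA to the small ribosomal subunit, where eIF3, a complex of many subunits, acts as a platform. The mRNA is recruited through the cap-binding protein eIF4E, the scaffold eIF4G and the helicase eIF4A, and eIF1, eIF1A, eIF5 and eIF5B take the ribosome through start codon selection and subunit joining. In the mouse embryo, transcripts stored in the egg are cleared around the 2-cell stage while the embryo's own genome is switched on, so that messages for general cell functions pass from a maternal to an embryonic supply.

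RNA was sequenced by Smart-seq2, in which oligo-dT primed cDNA is made with a template switch, amplified by PCR and cut by a transposase. The 39 libraries came from 19 embryos, all labelled wild type, in 4 groups: 5 separated 4-cell embryos (2 of batch 2 and 3 of batch 1), 5 separated 2-cell embryos, 4 intact 4-cell embryos and 5 intact 2-cell embryos, with batch 1 given for the last 3 groups. In a separated embryo every blastomere had a library of its own, and the counts of its sister blastomeres were summed, so that the embryo is the replicate throughout. The labels give no strain, age or treatment and do not say what a batch is or whether embryos came from separate mothers, so the p-values measure the spread between these embryos. An embryo is named below by its number in the labels.

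Total counts per embryo were 13041687 to 103179707 in separated 4-cell embryos, 14229859 to 56216705 in separated 2-cell embryos, 2738253 to 4194087 in intact 4-cell embryos and 7157823 to 9889934 in intact 2-cell embryos. The upper end belongs to batch 2, whose 2 embryos had 103179707 and 86817580 counts. The stage labels were matched by 6 markers of the 2-cell stage (Zscan4c, Zscan4d, Zscan4f, Tcstv3, Zfp352 and Usp17la), which summed to 1.49 to 39.4 CPM, a count scaled to a library of fixed size, in the 4-cell embryos and to 228 to 1296 CPM in the 2-cell embryos. All 8 oocyte and embryo markers had counts in the table, and they summed to 4849 to 7080 CPM in the batch 2 separated 4-cell embryos, to 26483 to 33157 CPM in those of batch 1 and to 18095 to 35760 CPM over the other groups. Of 10 cumulus and granulosa cell markers 9 had a count, Inha was at 0 and the sum reached at most 43.8 CPM. Of 7 blood markers 6 had a count, Hbb-bt was at 0 and the sum reached at most 50.4 CPM, and sperm and oviduct lists reached at most 30.3 and 15.5 CPM, with Prm1 and Tnp2 at 0. The part of these in the results below was not tested.

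Taken as one pool, initiation factor transcripts made up a larger share of the library at the 4-cell stage. The sum is not divided by length and is weighted to abundant genes. Eif2s2 alone averaged 3966 CPM in intact 4-cell and 1778 CPM in intact 2-cell embryos. In separated embryos it averaged 1616 CPM in batch 2 and 4468 CPM in batch 1 at the 4-cell stage, and 1631 CPM at the 2-cell stage. The 56 genes summed to 18509 ± 1295 CPM in the batch 2 separated 4-cell embryos (SD, n = 2), 18908 ± 1512 CPM in those of batch 1 (n = 3) and 10989 ± 2730 CPM in the separated 2-cell embryos (n = 5). The sum was 16414 ± 1773 CPM in intact 4-cell embryos (n = 4) and 9355 ± 1391 CPM in intact 2-cell embryos (n = 5). The lowest separated 4-cell embryo, at 17593 CPM, lay above the highest separated 2-cell embryo, at 14848 CPM, and the lowest intact 4-cell embryo, at 14201 CPM, lay above the highest intact 2-cell embryo, at 11327 CPM. A CPM is a share of the counts of an embryo after TMM scaling, so more transcripts of these genes and fewer of others cannot be told apart, and neither can cell number and RNA per cell.

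Gene by gene, 9 of the 55 genes tested rose in separated embryos and 0 fell, and 8 rose in intact embryos and 0 fell, at an adjusted p under 0.05 in edgeR's quasi-likelihood test across all genes. That is 16.4% of the members in separated embryos, where 11.1% of the 14119 genes tested passed (6.4% higher and 4.7% lower), and 14.5% in intact embryos, where 10.4% passed (5.41% higher and 4.99% lower). The shares of members called were thus not far above those of all genes, and all of those calls were upward. At an unadjusted p under 0.05, 16 members were higher and 2 lower (Eif4e1b and Eif4enif1) in separated embryos, and 23 were higher and 2 lower (Eif4a3l2 and Eif4e3) in intact embryos. Those are 32.7% of members against 27.9% of all genes in separated embryos, and 45.5% against 28% in intact embryos. DESeq2 called 9 members higher and 2 lower of 55 in separated embryos, where it called 3210 of 13467 genes. In intact embryos it called 12 higher and 3 lower of 55, where it called 3046 of 13467 genes.

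The median log2 fold change of the 55 members, 4-cell over 2-cell, was 0.71 in separated embryos against -0.15 for all genes tested, and 0.78 in intact embryos against 0.00 for all genes tested. In each comparison 40 of 55 members (72.7%) lay above 0, where 46.8% of all genes did in separated embryos and 49.7% in intact embryos. The separated fold changes are at the level of batch 1, because batch is a term of the fit and batch 2 holds separated 4-cell embryos only. With DESeq2's size factors in place of TMM, the medians of the members were 0.67 in separated and 0.65 in intact embryos, and those of all genes -0.21 and -0.13.

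**Figure D1:**
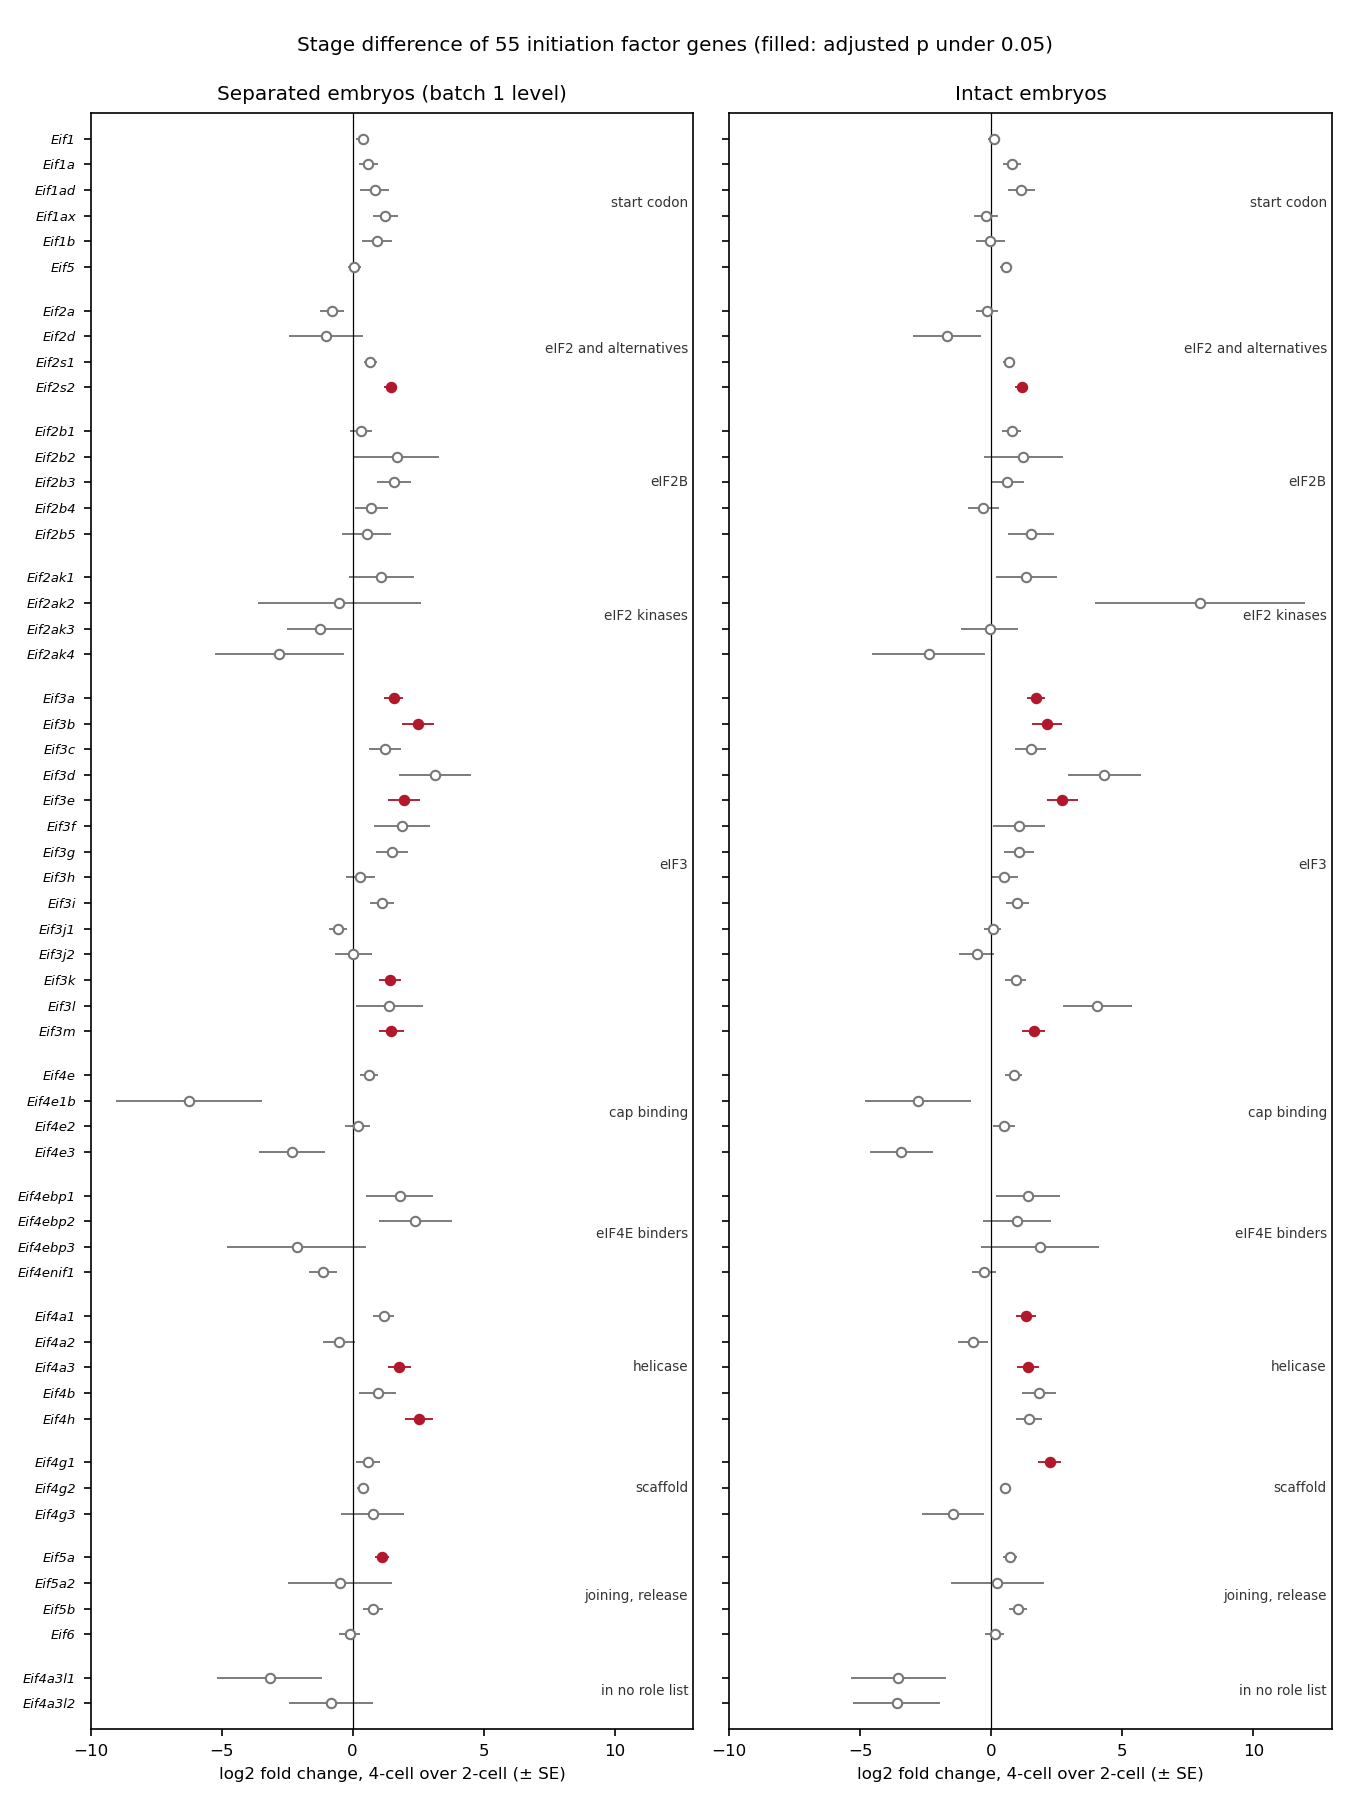
Log2 fold change (4-cell over 2-cell, horizontal axis) of the 55 genes tested, with bars of 1 standard error, in separated embryos (left, batch 1 level) and intact embryos (right), grouped by role. Filled red points passed an adjusted p under 0.05, 9 on the left and 8 on the right, and all of them lie above 0; the open Eif2ak2 point at the right has no counts in the intact 2-cell embryos.

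The genes that rose in both comparisons were Eif2s2, Eif3a, Eif3b, Eif3e, Eif3m and Eif4a3. Eif3k, Eif4h and Eif5a passed in separated embryos alone, and Eif4a1 and Eif4g1 in intact embryos alone. The separated and intact comparisons share no embryo but share the fit's estimate of spread. The difference between the 2 stage changes was tested directly for every gene. In edgeR 0 of 55 members and 0% of all genes passed. At an unadjusted p under 0.05 there were 2 members (3.64%), against 8.7% of all genes. DESeq2 called 0 members, where it called 517 of 13467 genes. A gene that passed in 1 comparison alone was therefore not shown to differ between them.

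Some calls hung on a setting. With no filter on low counts, Eif3b, Eif3k, Eif4h and Eif5a no longer passed in separated embryos, nor Eif3b, Eif4a1 and Eif4a3 in intact embryos. Without batch 2, Eif3e and Eif3m no longer passed in separated embryos, nor Eif3b, Eif4a1 and Eif4a3 in intact embryos. With the compared groups fitted alone, Eif3b, Eif3m and Eif4a1 no longer passed in intact embryos, and with DESeq2's size factors Eif4a1 did not. Eif2s2 and Eif3a passed under each of these settings in both comparisons, and Eif3e and Eif4g1 in intact embryos.

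Other genes passed under a different setting without passing in edgeR as reported, and below a gene is said to have passed, or to be called, by edgeR as reported unless DESeq2 is named. DESeq2 added Eif3d, Eif3l, Eif4b and Eif4h as higher and Eif4a3l1, Eif4a3l2 and Eif4e3 as lower in intact embryos, and Eif4e1b and Eif4enif1 as lower in separated embryos. With no filter on low counts Eif3c, Eif3d, Eif3l, Eif4e and Eif4e3 passed in intact embryos and Eif3d in separated embryos, and with a mean CPM of at least 10 Eif3d, Eif3l and Eif4e3 passed in intact embryos. With the compared groups fitted alone Eif3c and Eif5b passed in intact embryos. With sisters scaled to equal totals Eif3d and Eif3l passed in intact embryos and Eif2s1 and Eif4a1 in separated embryos.

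The stretch of genome around the transcription start of 5 of the genes that rose in both comparisons, and of Eif4a1, which had the smallest adjusted p between the batches, is printed to show what these promoters do and do not share. Each line holds the 150 bases before and the 20 bases from the start that RefSeq gives, on build GRCm38.p6, read 5′ to 3′ on the strand of the gene. Capitals mark a match, on either strand, to 1 of 6 short motifs searched for: the NRF1 consensus, CCGGAAG (the core bound by ETS factors), AAGATGGC (YY1), CACGTG (an E-box), CCAAT and TATAAA.
Eif2s2 (chr2:154892887-154893056, minus strand): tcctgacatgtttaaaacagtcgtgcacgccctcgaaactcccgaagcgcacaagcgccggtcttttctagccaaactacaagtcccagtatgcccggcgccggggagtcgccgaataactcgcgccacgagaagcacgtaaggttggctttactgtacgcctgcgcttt
Eif3a (chr19:60790674-60790843, minus strand): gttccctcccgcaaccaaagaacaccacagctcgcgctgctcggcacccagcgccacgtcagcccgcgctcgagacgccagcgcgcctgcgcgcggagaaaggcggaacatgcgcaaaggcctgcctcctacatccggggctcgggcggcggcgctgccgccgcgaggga
Eif3b (chr5:140419155-140419324, plus strand): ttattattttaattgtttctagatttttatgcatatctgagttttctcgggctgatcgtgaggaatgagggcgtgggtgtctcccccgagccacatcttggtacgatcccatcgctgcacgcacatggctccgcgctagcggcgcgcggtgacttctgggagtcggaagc
Eif3m (chr2:105017008-105017177, minus strand): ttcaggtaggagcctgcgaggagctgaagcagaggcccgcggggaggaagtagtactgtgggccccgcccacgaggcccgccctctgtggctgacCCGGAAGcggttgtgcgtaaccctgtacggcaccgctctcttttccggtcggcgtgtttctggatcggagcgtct
Eif4a3 (chr11:119300024-119300193, minus strand): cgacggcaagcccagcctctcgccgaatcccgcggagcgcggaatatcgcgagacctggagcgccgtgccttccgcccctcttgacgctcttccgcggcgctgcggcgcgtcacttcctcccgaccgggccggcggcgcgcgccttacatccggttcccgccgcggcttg
Eif4a1 (chr11:69672404-69672573, minus strand): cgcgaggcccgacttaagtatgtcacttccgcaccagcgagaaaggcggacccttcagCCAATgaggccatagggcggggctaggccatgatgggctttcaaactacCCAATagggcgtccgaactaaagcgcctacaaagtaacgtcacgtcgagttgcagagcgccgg
Eif3m has the ETS core 55 bases before its start, and Eif4a1 has CCAAT at 92 and at 43 bases before its start. The lines of Eif2s2, Eif3a, Eif3b and Eif4a3 hold none of the 6 motifs. A match is a run of letters and not a bound site, and a line without one says nothing of any factor.

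RefSeq promoters were matched for 43 of the 56 genes, with 56 start sites among them. Over the wider window of 250 bases before to 50 bases after the start, CCGGAAG stood in 19 of 56 member promoters (33.93%) and in 8.86% of all 32851 promoters. CACGTG stood in 12 (21.43%) against 7.15% of all, CCAAT in 16 (28.57%) against 37.41%, and TATAAA in 3 (5.36%) against 13.62%. AAGATGGC stood in 3 (5.36%) against 2.75%, and the NRF1 consensus in 1 (1.79%) against 0.97%. Some motifs can overlap at their ends, as CCGGAAG and AAGATGGC do over AAG, and several starts of 1 gene share sequence, so these promoters are not independent.

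eIF2 is the complex of alpha, beta and gamma subunits that delivers the initiator tRNA. Its beta subunit gene Eif2s2 (chr2:154871410-154892935, minus strand; all gene positions are from GENCODE M21 on GRCm38) rose in both comparisons and was the most abundant member per length in intact 4-cell embryos. Eif2s2 stood at 1438 and 1794 CPM in the batch 2 separated 4-cell embryos (embryos 6 and 7), at 3858, 3911 and 5633 CPM in those of batch 1 (embryos 2, 3 and 4), and at 1252, 1700, 1204, 2608 and 1390 CPM in the separated 2-cell embryos (embryos 1 to 5). It stood at 4586, 4800, 2433 and 4046 CPM in the intact 4-cell embryos (embryos 1, 3, 4 and 5) and at 2202, 1407, 1608, 1517 and 2157 CPM in the intact 2-cell embryos (embryos 1 to 5). Every batch 1 and every intact 4-cell embryo lay above every 2-cell embryo of its comparison, with 1 intact value, 2433 CPM, close to the highest 2-cell value of 2202 CPM, whereas both batch 2 embryos lay inside the separated 2-cell range. The log2 fold change was 1.45 ± 0.26 (SE) in separated embryos, adjusted p = 0.00195, and 1.16 ± 0.25 in intact embryos, adjusted p = 0.0053. Both calls were kept with each of the 19 embryos left out in turn. In GENCODE M21, 10.1% of its 50-base windows also occur in the predicted gene Gm9892, so the reads of the pair may have been split between them.

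Values of other genes are listed below in the same embryo order. The alpha subunit gene Eif2s1, which carries the serine that the eIF2 kinases phosphorylate, had 737, 520, 604 and 1009 CPM in intact 4-cell embryos and 532, 439, 321, 530 and 411 CPM in intact 2-cell embryos, where the lowest 4-cell embryo, at 520 CPM, lay below 2 of the 2-cell embryos, at 532 and 530 CPM. It had 381 to 507 CPM in batch 2 and 784 to 942 CPM in batch 1 separated 4-cell embryos and 350 to 652 CPM in separated 2-cell embryos. Its log2 fold changes were 0.68 ± 0.26 in separated and 0.68 ± 0.24 in intact embryos, and neither passed (adjusted p = 0.0956 and 0.0758). Eif2d, a factor that can place tRNA on the ribosome without eIF2, was low and scattered, with 7.77, 15.3, 11.2 and 11.5 CPM in intact 4-cell embryos and 19.1, 24.2, 71.8, 6.25 and 63.9 CPM in intact 2-cell embryos, a log2 fold change of -1.70 ± 1.30 (adjusted p = 0.428). Eif2a, whose product was named as an alternative carrier of the initiator tRNA, averaged 100 ± 14.6 CPM in intact 4-cell and 112 ± 50.1 CPM in intact 2-cell embryos.

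eIF2B is the exchange factor that reloads eIF2 with GTP. None of its 5 subunit genes, Eif2b1 to Eif2b5, passed in either stage comparison, and their median log2 fold change was 0.71 in separated and 0.78 in intact embryos, the same as or close to the median of all members. Eif2b1, the alpha subunit gene, had 343, 401, 363 and 310 CPM in intact 4-cell embryos and 209, 146, 376, 206 and 94.9 CPM in intact 2-cell embryos, where embryo 3 at 376 CPM lay inside the 4-cell range. Eif2b5, for the catalytic epsilon subunit, had 58.8, 44.6, 24.2 and 18.1 CPM in intact 4-cell embryos and 19.8, 16.3, 0.399, 6.36 and 21.1 CPM in intact 2-cell embryos, and the groups overlapped. Eif2b2 reached 127 and 119 CPM in the batch 2 separated 4-cell embryos, 32.3, 32.8 and 29.6 CPM in batch 1 and 0 to 41.2 CPM in separated 2-cell embryos. Eif2b3 and Eif2b4 averaged 78.3 ± 17.7 and 38.9 ± 16.4 CPM in intact 4-cell embryos and 51 ± 32.8 and 47.8 ± 34.5 CPM in intact 2-cell embryos.

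The 4 genes of the eIF2 kinases, which slow initiation under stress, were low in all groups. Eif2ak1, the heme-regulated kinase, had 32.6, 64.7, 20.1 and 10 CPM in intact 4-cell embryos and 9.42, 5.26, 0.399, 34.6 and 13.1 CPM in intact 2-cell embryos, and the ranges overlapped. Eif2ak3 (PERK, the kinase of the endoplasmic reticulum) averaged 19 ± 4.56 CPM in intact 4-cell and 19.8 ± 20.5 CPM in intact 2-cell embryos, and Eif2ak4 (GCN2, the sensor of uncharged tRNA) averaged 3.37 ± 4.16 CPM and 17.6 ± 14.6 CPM. Eif2ak2 (PKR, the sensor of double-stranded RNA) had counts in 4 of 19 embryos: embryos 2 and 7 of the separated 4-cell group at 6.44 and 1.31 CPM, embryo 3 of the separated 2-cell group at 15.3 CPM and embryo 4 of the intact 4-cell group at 4.65 CPM. No kinase gene passed in either stage comparison.

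eIF3 is the largest role group, so its count of calls is read against its size. Of its 14 genes, 5 rose in separated embryos (Eif3a, Eif3b, Eif3e, Eif3k and Eif3m) and 4 in intact embryos (Eif3a, Eif3b, Eif3e and Eif3m), while 0 fell. Over all genes tested, 6.4% rose in separated and 5.41% in intact embryos. The median log2 fold change of the 14 was 1.45 in separated and 1.29 in intact embryos, and 13 of 14 lay above 0 in each. Summed over the 14 genes, eIF3 transcripts stood at 4036 ± 88.1 CPM in batch 2 (SD, n = 2) and 3408 ± 217 CPM in batch 1 (n = 3) of the separated 4-cell embryos and at 1459 ± 350 CPM in separated 2-cell embryos (n = 5). The sum was 2860 ± 180 CPM in intact 4-cell embryos (n = 4) and 1106 ± 390 CPM in intact 2-cell embryos (n = 5). The lowest 4-cell sum was 3203 CPM in separated and 2690 CPM in intact embryos, against a highest 2-cell sum of 1941 CPM in separated and 1604 CPM in intact embryos.

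Eif3a (chr19:60761117-60790658, minus strand) and Eif3b (chr5:140419328-140443360, plus strand) encode the pair of large subunits on which the complex is built. Eif3a had 835 and 679 CPM in batch 2 and 474, 527 and 739 CPM in batch 1 of the separated 4-cell embryos and 138, 252, 249, 271 and 71.4 CPM in separated 2-cell embryos. It had 395, 729, 528 and 657 CPM in intact 4-cell embryos and 210, 127, 106, 195 and 246 CPM in intact 2-cell embryos. All 4-cell embryos lay above all 2-cell embryos in both comparisons, with log2 fold changes of 1.56 ± 0.37 (adjusted p = 0.0128) in separated and 1.71 ± 0.35 (adjusted p = 0.0045) in intact embryos. Leaving out embryo 4 of the separated 4-cell group took the separated adjusted p to 0.0691, and the intact call was kept whichever of the 19 embryos was left out. Eif3b had 94.6 and 90.7 CPM in batch 2 and 45.3, 112 and 75.4 CPM in batch 1 of the separated 4-cell embryos and 23.2, 9.98, 10.3, 7.21 and 18.7 CPM in separated 2-cell embryos. It had 59.3, 35, 62.6 and 45.7 CPM in intact 4-cell embryos and 9.42, 7.73, 25.7, 10.9 and 4.27 CPM in intact 2-cell embryos. The groups again did not overlap, and the log2 fold changes were 2.49 ± 0.61 in separated embryos (adjusted p = 0.0143) and 2.12 ± 0.58 in intact embryos (adjusted p = 0.0242). Its separated call was lost without embryo 3 of the separated 4-cell group (adjusted p = 0.0682), and its intact call was kept in 11 of 19 such fits, with adjusted p from 0.00902 to 0.081.

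Eif3e (chr15:43250058-43282719, minus strand) encodes a subunit also known as INT6. It had 313 and 379 CPM in batch 2 and 649, 514 and 761 CPM in batch 1 of the separated 4-cell embryos and 250, 57.4, 157, 251 and 117 CPM in separated 2-cell embryos. It had 381, 366, 432 and 415 CPM in intact 4-cell embryos and 33.4, 2.96, 74.9, 92 and 100 CPM in intact 2-cell embryos. The intact 4-cell values lie close together and well above the 2-cell values, of which embryo 2 is the lowest at 2.96 CPM. The log2 fold change was 2.71 ± 0.60 in intact embryos (adjusted p = 0.00679), a call kept in all 19 leave-one-out fits. In separated embryos it was 1.95 ± 0.62 (adjusted p = 0.0475), a call kept in 4 of 19, with adjusted p from 0.00489 to 0.143.

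Eif3m (chr2:104999656-105017080, minus strand) had 380 and 361 CPM in batch 2 and 463, 554 and 449 CPM in batch 1 of the separated 4-cell embryos and 90.1, 178, 163, 319 and 133 CPM in separated 2-cell embryos. It had 365, 361, 281 and 498 CPM in intact 4-cell embryos and 87.7, 35, 96.2, 108 and 282 CPM in intact 2-cell embryos. The separated groups did not overlap, and the intact groups touched, at 281 CPM in 4-cell embryo 4 and 282 CPM in 2-cell embryo 5. The log2 fold changes were 1.47 ± 0.47 in separated (adjusted p = 0.0478) and 1.63 ± 0.44 in intact embryos (adjusted p = 0.0237), and 1 embryo left out ended the separated call in 16 of 19 fits (adjusted p from 0.0187 to 0.146) and the intact call in 7 of 19 (from 0.0014 to 0.114). Of its nonzero values 97.4% are not whole, and 17.2% of its 50-base windows occur in the predicted gene Gm7658, so part of its counts was shared out by the authors' quantification.

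Eif3k (chr7:28971372-28981864, minus strand) encodes a small peripheral subunit. It had 223 and 231 CPM in batch 2 and 339, 159 and 293 CPM in batch 1 of the separated 4-cell embryos and 99.5, 77.5, 88.4, 124 and 98.1 CPM in separated 2-cell embryos, which do not overlap. It had 325, 121, 263 and 248 CPM in intact 4-cell embryos and 73.1, 59.4, 93.9, 187 and 212 CPM in intact 2-cell embryos, where 4-cell embryo 3 lies inside the 2-cell range. The log2 fold change was 1.44 ± 0.42 in separated embryos (adjusted p = 0.0324, from 0.0238 to 0.123 with 1 embryo left out and under 0.05 in 8 of 19) and 0.93 ± 0.39 in intact embryos (adjusted p = 0.122).

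Eif3d, whose product can itself bind the cap, had 88.8, 35.7, 61.4 and 49.3 CPM in intact 4-cell embryos and 0.138, 8.22, 0.0997, 6.36 and 0 CPM in intact 2-cell embryos. Eif3l, a partner of Eif3k in the complex, had 66.3, 46.5, 48.9 and 150 CPM in intact 4-cell embryos and 0.138, 0.164, 0.0997, 7.16 and 16.2 CPM in intact 2-cell embryos. Neither pair of groups overlapped, and the fitted differences of 4.32 ± 1.39 and 4.04 ± 1.32 on the log2 scale had wide errors and missed the threshold (adjusted p = 0.0524 for Eif3d and 0.0553 for Eif3l). An antisense gene, Gm17638, covers 43.3% of the Eif3d exons, and 60.6% of the nonzero Eif3d values are not whole. The other core and peripheral subunit genes stood higher in the 4-cell embryos without passing. Eif3c, for the third large core subunit, had 388, 372, 272 and 369 CPM in intact 4-cell embryos and 214, 54.9, 76.2, 110 and 159 CPM in intact 2-cell embryos, which do not overlap (log2 fold change 1.51 ± 0.59, adjusted p = 0.0996). Eif3g and Eif3i, for subunits that bind Eif3b, averaged 208 ± 52.9 and 172 ± 21.8 CPM in intact 4-cell embryos and 99.7 ± 46 and 86.3 ± 35.1 CPM in intact 2-cell embryos. Eif3f and Eif3h, for the pair of MPN-domain subunits, averaged 41.5 ± 16.2 and 117 ± 35.7 CPM in intact 4-cell embryos and 19.8 ± 13.4 and 82.6 ± 61.9 CPM in intact 2-cell embryos. At the low end of the group, Eif3j1 and Eif3j2, near copies of one another for a loosely bound subunit, had log2 fold changes of -0.57 ± 0.35 and 0.03 ± 0.71 in separated embryos and 0.05 ± 0.31 and -0.56 ± 0.66 in intact embryos. Since 90.8% of the Eif3j2 windows occur in Eif3j1, the level of either is uncertain.

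**Figure D2:**
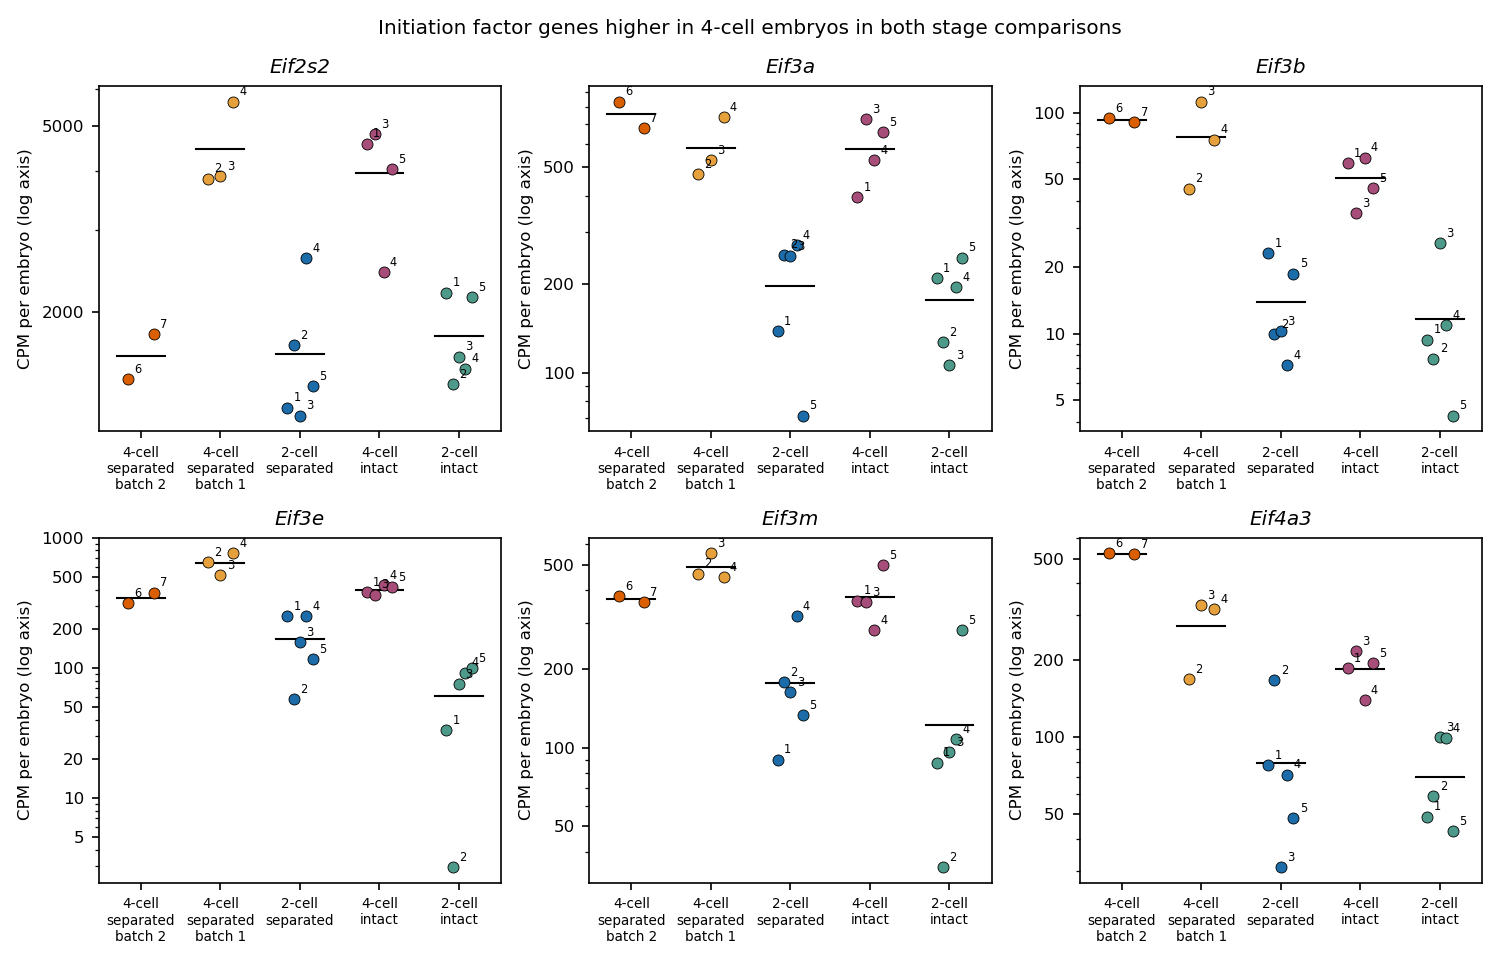
CPM per embryo (vertical log axis, TMM-normalised) of the 6 genes that rose in both stage comparisons, with 1 point per embryo, its number beside it and the group mean as a line. The 4-cell groups stand left of their 2-cell groups, and the exceptions to the separation of stages are the batch 2 embryos for Eif2s2, at 1438 and 1794 CPM, and intact 2-cell embryo 5 for Eif3m, at 282 CPM.

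Among the helicase genes, 2 of 5 rose in separated embryos (Eif4a3 and Eif4h) and 2 of 5 in intact embryos (Eif4a1 and Eif4a3). The shares over all genes tested were 6.4% and 5.41%, and 5 genes are too few for a share of their own to be read. Eif4a3 (chr11:119288363-119300089, minus strand) encodes a close relative of the eIF4A helicase that sits in the exon junction complex, which marks spliced mRNA, and so its name places it here more than its main known role does. It had 525 and 521 CPM in batch 2 and 169, 330 and 318 CPM in batch 1 of the separated 4-cell embryos and 78.1, 167, 31.1, 71.4 and 48.3 CPM in separated 2-cell embryos. It had 186, 217, 140 and 195 CPM in intact 4-cell embryos and 49, 58.9, 99.9, 99.2 and 42.9 CPM in intact 2-cell embryos. Every 4-cell embryo lay above every 2-cell embryo of its comparison, although separated 4-cell embryo 2, at 169 CPM, only just passed separated 2-cell embryo 2, at 167 CPM. The log2 fold changes were 1.78 ± 0.44 in separated (adjusted p = 0.0149) and 1.40 ± 0.41 in intact embryos (adjusted p = 0.0372). With 1 embryo left out the separated call was lost without separated 4-cell embryo 3 or 4 (highest adjusted p 0.0541), and the intact call was kept in 6 of 19 fits, with adjusted p from 0.0205 to 0.128.

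The copies Eif4a3l1 and Eif4a3l2, listed in GENCODE M21 as Gm8994 and Gm5580, had the opposite sign to Eif4a3. Eif4a3l1 averaged 1.2 ± 1.12 CPM in intact 4-cell and 14.1 ± 13 CPM in intact 2-cell embryos, and Eif4a3l2 averaged 0.439 ± 0.513 CPM and 5.42 ± 5.24 CPM (SD, n = 4 and n = 5). Their log2 fold changes in intact embryos were -3.55 ± 1.81 and -3.60 ± 1.66, which did not pass (adjusted p = 0.205 and 0.163) in edgeR and passed in DESeq2. In separated embryos they were -3.17 ± 1.99 and -0.83 ± 1.60. The copies share 11.3% and 16.6% of their 50-base windows with Eif4a3, and more than that with each other.

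Eif4a1 (chr11:69666936-69672423, minus strand) encodes the main eIF4A helicase. It had 170, 195, 68.7 and 182 CPM in intact 4-cell embryos and 57.3, 36.2, 95.1, 41 and 80.2 CPM in intact 2-cell embryos, with 4-cell embryo 4 inside the 2-cell range, and a log2 fold change of 1.31 ± 0.38 (adjusted p = 0.0326). That call was kept in 6 of 19 fits with 1 embryo left out, with adjusted p from 0.0233 to 0.141. In batch 1 separated 4-cell embryos it had 109, 147 and 109 CPM against 68.5, 39.3, 79.1, 27.9 and 55.1 CPM in separated 2-cell embryos, a log2 fold change of 1.18 ± 0.40 (adjusted p = 0.0629). Its batch 2 values are given with the batches. Of its nonzero values 87.2% are not whole, and 24.2% of its windows occur in the pseudogene Eif4a-ps4.

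Eif4a2, the second eIF4A gene, gave no call, with 84.2, 52.1, 59.4 and 73.3 CPM in intact 4-cell embryos, 82, 135, 173, 92.5 and 66.1 CPM in intact 2-cell embryos and a log2 fold change of -0.71 ± 0.57 (adjusted p = 0.459). Eif4h (chr5:134619721-134639490, minus strand) encodes an RNA-binding cofactor that stimulates eIF4A. It had 125 and 140 CPM in batch 2 and 81.8, 96.2 and 73.1 CPM in batch 1 of the separated 4-cell embryos and 14.9, 28.5, 2.91, 9.95 and 16.1 CPM in separated 2-cell embryos. The groups lay far apart, with a log2 fold change of 2.53 ± 0.54 (adjusted p = 0.00612), and the call was kept in all 19 leave-one-out fits. In intact embryos Eif4h had 68.9, 53.2, 66.5 and 82.8 CPM at the 4-cell stage and 23.8, 20.2, 22, 25.3 and 34.5 CPM at the 2-cell stage, which do not overlap either, and the log2 fold change of 1.43 ± 0.50 missed the threshold (adjusted p = 0.0735). The related cofactor gene Eif4b had 71, 45.8, 45.7 and 66.2 CPM in intact 4-cell and 6.92, 38.2, 3.69, 24.2 and 7.76 CPM in intact 2-cell embryos (log2 fold change 1.82 ± 0.66, adjusted p = 0.0792).

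Eif4g1 (chr16:20668313-20692884, plus strand) encodes the scaffold that joins the cap, the helicase and eIF3. In intact embryos it had 91.4, 66.2, 83.1 and 103 CPM at the 4-cell stage and 5.4, 14, 26.9, 22.2 and 22.5 CPM at the 2-cell stage. The lowest 4-cell embryo was thus well above the highest 2-cell embryo, the log2 fold change was 2.24 ± 0.44 (adjusted p = 0.00292) and all 19 leave-one-out fits kept the call. In separated embryos Eif4g1 had 269 and 192 CPM in batch 2, 42.8, 59.9 and 45.7 CPM in batch 1 and 36.9, 38.4, 26.8, 28.7 and 36.2 CPM at the 2-cell stage. The separated log2 fold change, at the level of batch 1, was 0.57 ± 0.46 (adjusted p = 0.469). The difference between the separated and the intact stage changes was -1.67 ± 0.65 on the log2 scale, with an unadjusted p of 0.0178 and an adjusted p of 0.452, and so was not established.

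The other scaffold genes gave no call. Eif4g2, whose product lacks the eIF4E-binding part and serves other routes of initiation, had 772, 609, 886 and 559 CPM in intact 4-cell embryos and 570, 418, 486, 519 and 479 CPM in intact 2-cell embryos, a log2 fold change of 0.52 ± 0.19 (adjusted p = 0.0901). Eif4g3, the second eIF4G gene, had 6.47, 4.09, 5.38 and 6.84 CPM in intact 4-cell embryos and 12.9, 13.6, 15.1, 6.02 and 30.6 CPM in intact 2-cell embryos, a log2 fold change of -1.46 ± 1.17 (adjusted p = 0.457).

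None of the 4 cap-binding genes passed in edgeR, while DESeq2 called Eif4e3 lower in intact and Eif4e1b lower in separated embryos. Eif4e, the cap-binding protein of general translation, had 2135, 1682, 2491 and 2786 CPM in intact 4-cell embryos and 1226, 695, 1103, 1563 and 1687 CPM in intact 2-cell embryos, a log2 fold change of 0.86 ± 0.32 (adjusted p = 0.0868) that passed with no low-count filter. Eif4e3, a relative with a different cap contact, had 13.5, 3.72, 7.34 and 0 CPM in intact 4-cell embryos and 25.5, 183, 41.4, 68 and 14.5 CPM in intact 2-cell embryos, which do not overlap, a log2 fold change of -3.43 ± 1.20 that missed the threshold in edgeR (adjusted p = 0.0711) and passed in DESeq2, with no low-count filter and with a mean CPM of at least 10. Eif4e2, a cap-binding protein that acts in repression, averaged 166 ± 44.8 CPM in intact 4-cell and 120 ± 32.8 CPM in intact 2-cell embryos. Eif4e1b, an oocyte form of the cap-binding protein, had 0, 0.372, 0 and 7.33 CPM in intact 4-cell embryos and 27.7, 28.3, 5.98, 5.79 and 0 CPM in intact 2-cell embryos. In the separated embryos its counts were 648 in batch 2, 2 in batch 1 and 681 at the 2-cell stage, over all embryos of each, and in separated 2-cell embryos they came mostly from embryos 4 and 5, at 10.7 and 8.08 CPM. The stage differences of Eif4e1b did not pass in edgeR (adjusted p = 0.148 in separated and 0.393 in intact embryos), and that in separated embryos passed in DESeq2.

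The proteins that bind eIF4E and keep it from the scaffold, or carry it to the nucleus and to RNA granules, gave no call in edgeR either. Eif4ebp1 had 26.2, 57.3, 42.3 and 31.7 CPM in intact 4-cell embryos and 0.692, 38.8, 0, 24.5 and 11.2 CPM in intact 2-cell embryos, where 2 embryos stood below 1 CPM (log2 fold change 1.39 ± 1.22, adjusted p = 0.504). Eif4ebp3 had 5.7, 1.49, 0 and 2.44 CPM in intact 4-cell embryos and 3.32, 0, 0, 0 and 0 CPM in intact 2-cell embryos, and it shares 65.5% of its windows with an overlapping annotated gene on the same strand. Eif4ebp2 averaged 17.9 ± 3.18 CPM in intact 4-cell and 9.06 ± 8.06 CPM in intact 2-cell embryos. Eif4enif1, the transporter 4E-T, averaged 44.4 ± 5.45 CPM in batch 2 (n = 2), 19.1 ± 5.13 CPM in batch 1 (n = 3) and 41.6 ± 9.62 CPM in separated 2-cell embryos (n = 5), a log2 fold change of -1.13 ± 0.53 (adjusted p = 0.175) that passed in DESeq2.

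The 6 start codon genes gave no stage call. Their median log2 fold change was 0.72 in separated and 0.34 in intact embryos. Eif5, the GTPase activator of eIF2, had 1480, 1324, 1144 and 1681 CPM in intact 4-cell embryos and 923, 820, 845, 794 and 1418 CPM in intact 2-cell embryos, with 2-cell embryo 5 inside the 4-cell range (log2 fold change 0.55 ± 0.23, adjusted p = 0.117). Eif1a had 411, 236, 149 and 327 CPM in intact 4-cell embryos and 125, 193, 191, 140 and 170 CPM in intact 2-cell embryos (log2 fold change 0.78 ± 0.34, adjusted p = 0.143). Eif1, which guards the choice of start codon, was abundant at both stages, at 1123 ± 269 CPM in intact 4-cell and 1032 ± 257 CPM in intact 2-cell embryos (log2 fold change 0.12 ± 0.23, adjusted p = 0.787). Eif1ax, the X-linked paralog of Eif1a, averaged 127 ± 20.8 CPM and 147 ± 111 CPM in those groups (SD, n = 4 and n = 5), and 203 ± 11.6 CPM in batch 2, 333 ± 138 CPM in batch 1 and 141 ± 43.6 CPM in separated 2-cell embryos. Eif1ad and Eif1b averaged 99.3 ± 52.8 and 34 ± 12.4 CPM in intact 4-cell embryos and 44.7 ± 16.3 and 34.9 ± 20.7 CPM in intact 2-cell embryos.

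In the group of subunit joining and release, Eif5a (chr11:69916714-69921958, minus strand) was the gene that passed. Its product, once named an initiation factor, is known to relieve ribosomes stalled in elongation. Eif5a had 1488 and 1534 CPM in batch 2 and 473, 527 and 528 CPM in batch 1 of the separated 4-cell embryos and 175, 323, 273, 198 and 201 CPM in separated 2-cell embryos. The groups did not overlap, and the log2 fold change at the level of batch 1 was 1.12 ± 0.28 (adjusted p = 0.0162), lost without separated 4-cell embryo 3 or 4 (highest adjusted p 0.0558). In intact embryos it had 384, 269, 287 and 549 CPM at the 4-cell stage and 231, 274, 279, 201 and 155 CPM at the 2-cell stage, which overlap, with a log2 fold change of 0.71 ± 0.26 (adjusted p = 0.0872). Its paralog Eif5a2 averaged 21.2 ± 12.2 CPM in intact 4-cell and 18.1 ± 16.5 CPM in intact 2-cell embryos. Eif5b, the GTPase of subunit joining, had 486, 787, 490 and 577 CPM in intact 4-cell embryos and 211, 323, 244, 394 and 275 CPM in intact 2-cell embryos, which do not overlap, and a log2 fold change of 1.02 ± 0.35 that missed the threshold (adjusted p = 0.0664). Eif6, which keeps the large subunit from joining too early, had 300, 104, 295 and 250 CPM in intact 4-cell embryos and 241, 150, 280, 167 and 241 CPM in intact 2-cell embryos, which overlap (log2 fold change 0.14 ± 0.36, adjusted p = 0.853).

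Levels can be set beside each other between genes only after division by length, here the kilobases of merged exons. On that scale, in CPM per kilobase, the order in intact 4-cell embryos was Eif2s2 at 587, Eif1 at 535, Eif4e at 378, Eif5 at 206 and Eif5a at 157. In intact 2-cell embryos it was Eif1 at 492, Eif2s2 at 263, Eif4e at 209, Eif5 at 141 and Eif5a at 95.9. The 5 genes at the top are thus the same at both stages, with Eif2s2 and Eif1 in the other order. Of these, Eif2s2 passed between the stages in intact embryos, and Eif2s2 and Eif5a in separated embryos. The lowest eIF3 genes were Eif3j2 at 5.17 CPM per kilobase in intact 4-cell embryos and Eif3d at 0.597 in intact 2-cell embryos. Eif3e stood at 59.3 CPM per kilobase and rank 19 of 56 in intact 4-cell embryos and at 9.03 and rank 30 in intact 2-cell embryos. Smart-seq2 libraries cover transcripts unevenly, so a level per length is approximate.

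**Figure D3:**
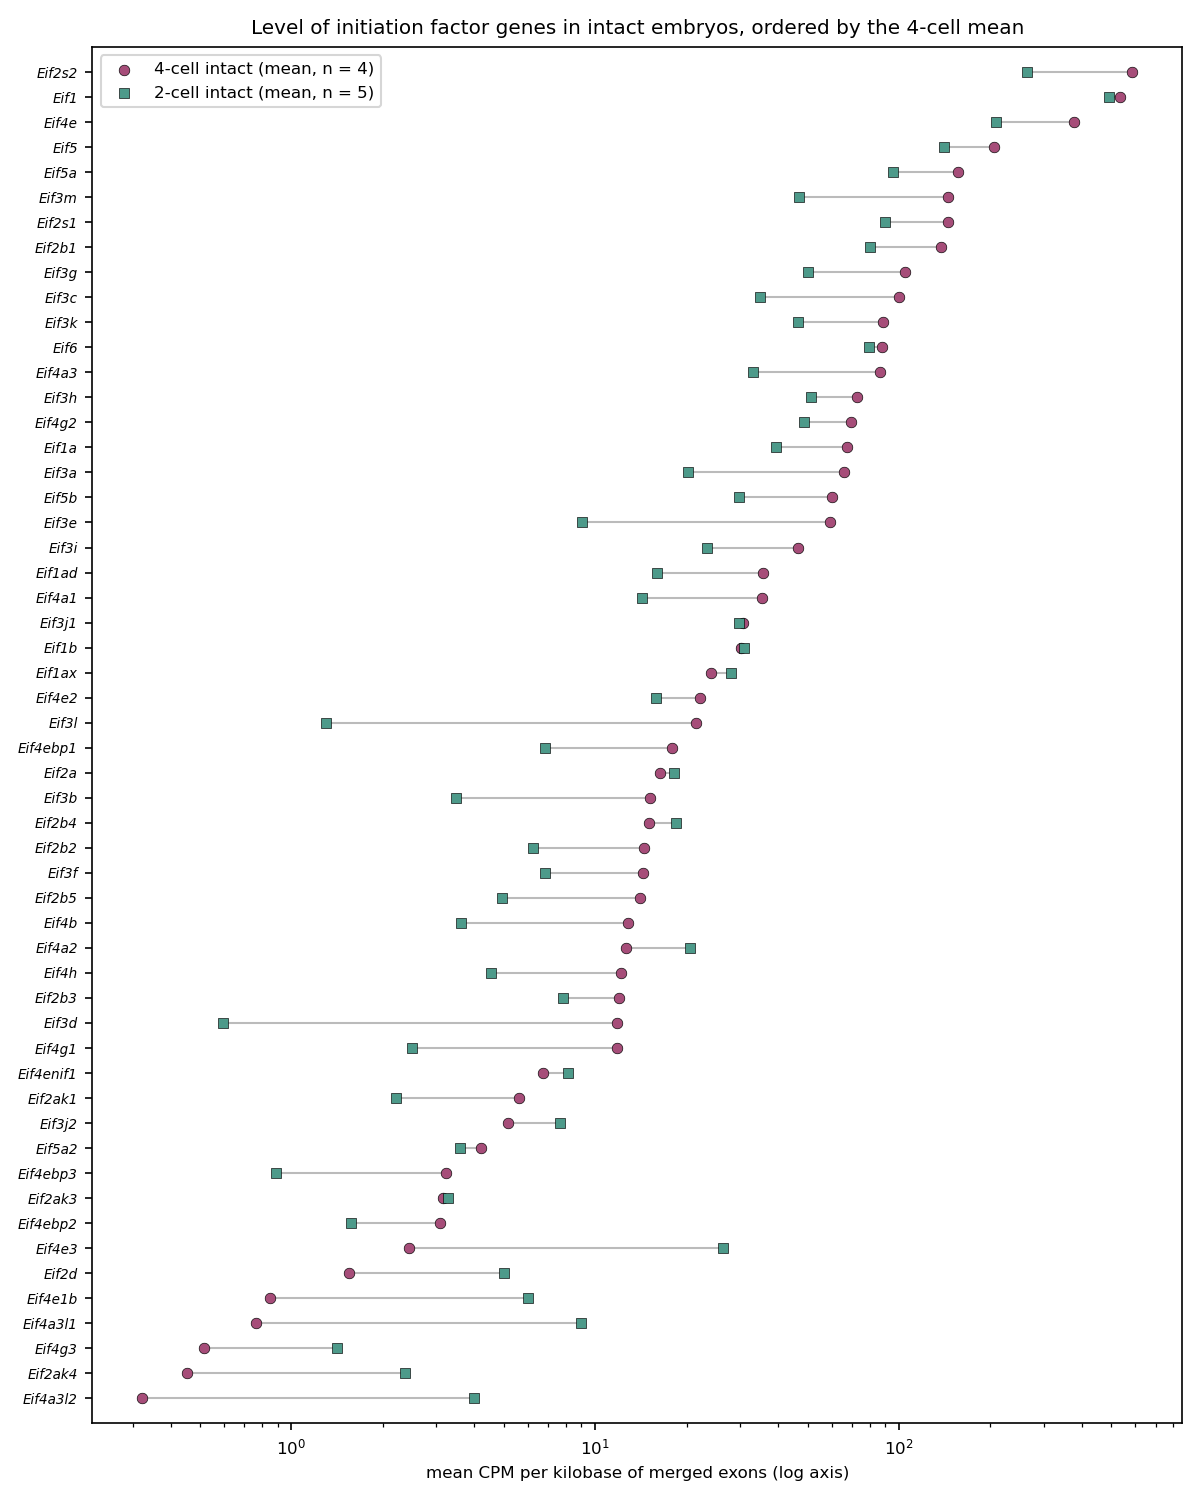
Mean CPM per kilobase of merged exons (horizontal log axis) in intact 4-cell embryos (circles, n = 4) and intact 2-cell embryos (squares, n = 5), in the order of the 4-cell mean, with Eif2ak2 and Eif2c5 left out because a mean is 0. Circles stand right of squares for most genes of the upper and middle part, and far left of them for Eif4e3, Eif4e1b, Eif4a3l1 and Eif4a3l2, none of which passed in edgeR in intact embryos; DESeq2 called Eif4e3, Eif4a3l1 and Eif4a3l2.

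Separation into blastomeres left these genes without a call. In separated over intact embryos, 0 of 55 members passed in edgeR at the 2-cell stage, where 0.0142% of all genes passed, and 0 of 55 at the 4-cell stage, where 0% of all genes passed. At an unadjusted p under 0.05 there were 5 of 55 members at the 2-cell stage, against 1481 of 14119 genes. At the 4-cell stage there were 2 of 55 members, against 844 of 14119 genes. All 5 at the 2-cell stage were higher in separated embryos, and of the 2 at the 4-cell stage 1 was higher and 1 lower. Counts this small cannot show whether the share of members differs from that of all genes at either stage. DESeq2 called 0 members at each, where it called 492 of 13467 genes at the 2-cell stage and 379 at the 4-cell stage. The members' median log2 fold change was 0.21 at the 2-cell stage and 0.17 at the 4-cell stage, against 0.16 and 0.05 for all genes tested. Separated embryos are sums of several libraries made from single cells, so separation and the amount of RNA put into a library cannot be told apart. The gene with the smallest adjusted p was Eif3e at the 2-cell stage, with 250, 57.4, 157, 251 and 117 CPM in separated and 33.4, 2.96, 74.9, 92 and 100 CPM in intact embryos, a log2 fold change of 1.45 ± 0.56 (adjusted p = 0.289); it passed with no filter on low counts. Eif5 followed, at 1306, 1942, 1098, 1736 and 958 CPM in separated and 923, 820, 845, 794 and 1418 CPM in intact 2-cell embryos, a log2 fold change of 0.55 ± 0.22 (adjusted p = 0.297).

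Among separated 4-cell embryos, 3 of 55 members (5.45%) differed between batch 2 and batch 1, 2 higher and 1 lower, where 2.03% of all genes differed (0.269% higher and 1.76% lower). Eif4a1 had 1057 and 1054 CPM in batch 2 and 109, 147 and 109 CPM in batch 1, a log2 fold change of 3.11 ± 0.52 (adjusted p = 0.00177). Eif5a had 1488 and 1534 CPM in batch 2 and 473, 527 and 528 CPM in batch 1, a log2 fold change of 1.57 ± 0.35 (adjusted p = 0.0199). Eif2s2 was the gene that fell, to 1438 and 1794 CPM in batch 2 against 3858, 3911 and 5633 CPM in batch 1, a log2 fold change of -1.47 ± 0.35 (adjusted p = 0.03). The batches did not overlap for any of these 3 genes, nor for some genes that did not pass. Eif3d, for example, had 175 and 202 CPM in batch 2 and 59.5, 63.6 and 31.9 CPM in batch 1. The share of all genes without overlap was not counted, so the lack of overlap adds nothing to these calls. The Eif4a1 call was kept in all 19 leave-one-out fits. The Eif5a call ended when separated 4-cell embryo 2, 6 or 7 was left out, the highest adjusted p being 0.195, and the Eif2s2 call was kept in 8 of 19, with adjusted p from 0.0109 to 0.357.

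Of the genes that did not pass between the batches, Eif4g1 and Eif6 had the smallest adjusted p. They were not the only such genes to stand higher in both batch 2 embryos. The median log2 fold change of the 55 members was 0.54, against 0.13 for all genes tested. Of the members 67.3% lay above 0, against 52.8% of all genes tested. Eif4g1 had 269 and 192 CPM in batch 2 and 42.8, 59.9 and 45.7 CPM in batch 1 (log2 fold change 2.22 ± 0.58, adjusted p = 0.0529), and Eif6 had 649 and 778 CPM in batch 2 and 190, 274 and 214 CPM in batch 1 (1.66 ± 0.49, adjusted p = 0.0939). Of the 14 eIF3 genes, 0 passed in edgeR, and their median was 0.32, with 8 above 0. Their log2 fold changes ran from -0.89 ± 0.81 for Eif3e to 2.49 ± 1.64 for Eif3l. Eif3l had 202 and 244 CPM in batch 2 and 29.7, 59.1 and 30.7 CPM in batch 1. Batch 2 differs from batch 1 in more than these genes: its embryos have 86817580 to 103179707 counts against 13041687 to 15810965, and its oocyte and embryo markers sum to 4849 to 7080 CPM against 26483 to 33157 CPM. The part of depth and of these markers in the difference was not tested, and batch 2 has no intact or 2-cell embryo to set beside it. With DESeq2's size factors the split over all genes moved to 73 higher and 207 lower, against 38 higher and 248 lower, and 5 members passed, with Eif4g1 and Eif6 added as higher.

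**Figure D4:**
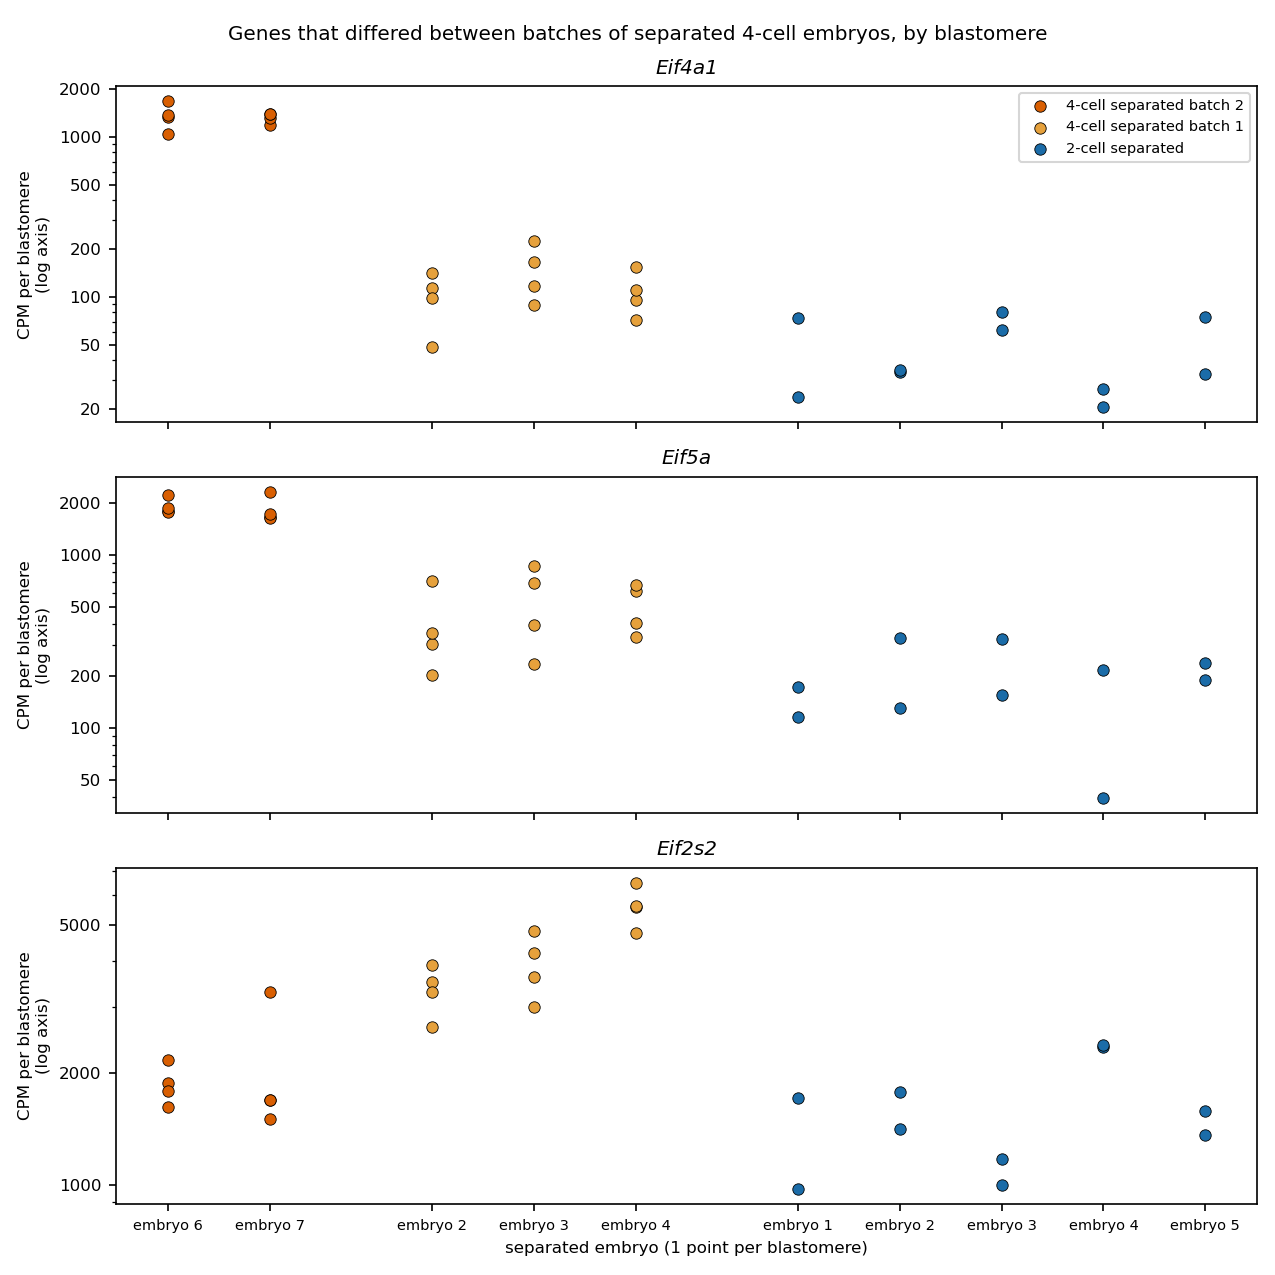
CPM per blastomere (vertical log axis, scaled by the library total) of the 3 genes that differed between batches of separated 4-cell embryos, with 1 point per blastomere and 1 column per embryo. Every batch 2 blastomere exceeds every batch 1 blastomere for Eif4a1 (1042 against 224 CPM at the nearest) and Eif5a (1633 against 864 CPM), while for Eif2s2 the 2 batches overlap through a batch 2 blastomere of embryo 7 at 3301 CPM.

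Within separated embryos, the levels could be read cell by cell. Here CPM is scaled by the library total and not by TMM, so it runs on a somewhat different scale from the embryo values. Eif4a1 was 1042 to 1666 CPM (median 1344) in the 8 blastomeres of batch 2, 48.4 to 224 CPM (median 111) in the 12 of batch 1 and 20.4 to 80.0 CPM (median 34.3) in the 10 blastomeres of 2-cell embryos. Eif5a was 1633 to 2313 CPM (median 1785) in batch 2, 202 to 864 CPM (median 400) in batch 1 and 39.3 to 329 CPM (median 181) in 2-cell blastomeres. Eif2s2 was 1502 to 3301 CPM (median 1742) in batch 2, 2664 to 6488 CPM (median 4048) in batch 1 and 975 to 2380 CPM (median 1493) in 2-cell blastomeres. For Eif4a1 and Eif5a every batch 2 cell lay above every batch 1 cell. The cells of an embryo are not replicates, and these values are a description.

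Most initiation factor genes were detected in every cell. A count was present in every blastomere for 50 of 56 genes in batch 2 and 38 of 56 in batch 1 of the 4-cell embryos and for 35 of 56 in 2-cell embryos, where 15.64%, 6.05% and 7.41% of all genes in the table were. In all 30 blastomeres, 31 of 56 members had a count, and 4.29% of all genes did. Blastomere libraries held 2019187 to 31576272 counts in batch 2, 2404476 to 5232479 in batch 1 and 5930835 to 44048062 at the 2-cell stage, so shares of genes detected are not compared between these sets.

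Sister blastomeres of an embryo differed less in these genes than in the median gene. For genes with a mean of at least 10 CPM, the median standard deviation of log2 CPM between sisters was 0.32 over 48 members in batch 2, against 0.55 over 6798 genes. It was 0.80 over 46 members in batch 1, against 2.34 over 5862 genes, and 1.19 over 45 members in 2-cell embryos, against 1.99 over 6352 genes. No test was made, and the level of the other genes was not matched. Among the members, those of low level had the wider spread in the plot of spread against level. The closest sisters were found for Eif3c in batch 2 (0.11), Eif3e in batch 1 (0.18) and Eif1 in 2-cell embryos (0.18). The widest were Eif2ak3 in batch 2 (0.71), Eif5a2 in batch 1 (3.79) and Eif3b in 2-cell embryos (4.37), where 3 of 10 blastomeres had no Eif3b count and the highest had 39.8 CPM.

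**Figure D5:**
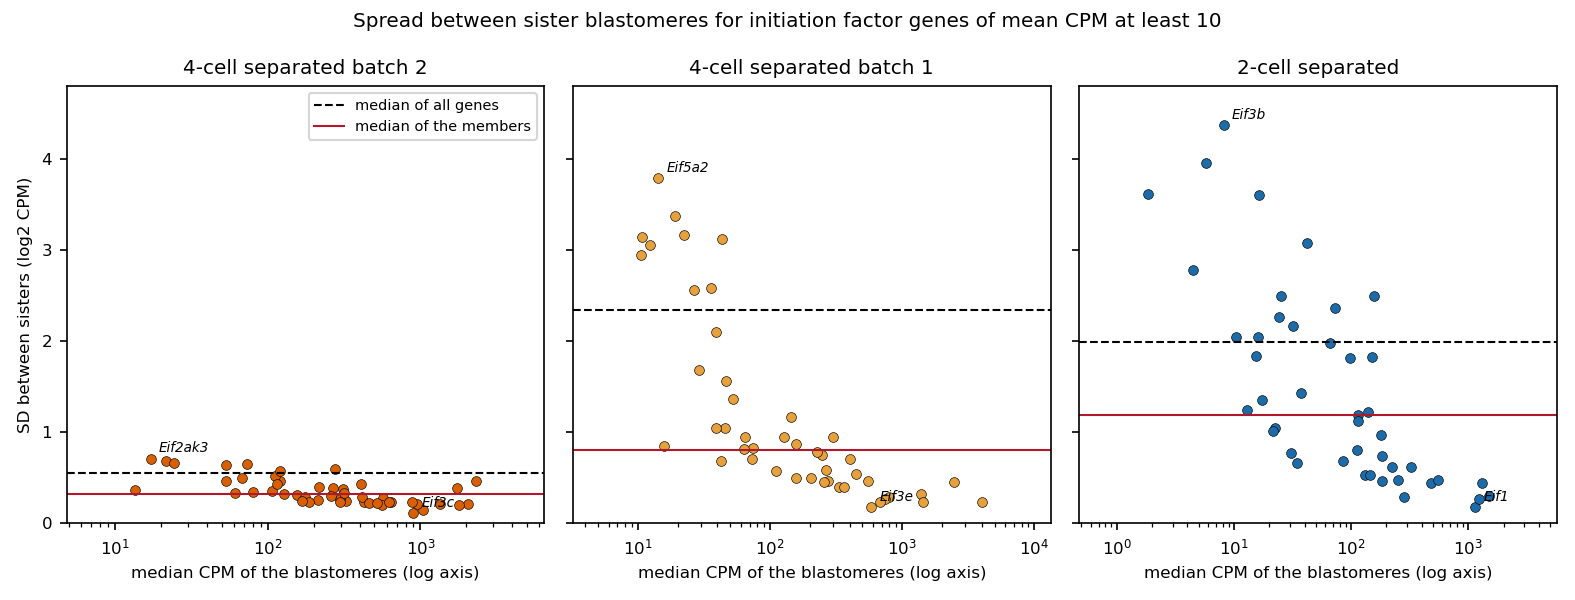
Standard deviation of log2 CPM between sister blastomeres (vertical axis) against the median CPM over blastomeres (horizontal log axis) for initiation factor genes of mean CPM at least 10, in batch 2 and batch 1 of the separated 4-cell embryos and in separated 2-cell embryos. The solid line is the members' median (0.32, 0.80 and 1.19 from left to right) and the dashed line that of all genes (0.55, 2.34 and 1.99), and low-level genes have the widest spread.

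Other genes of translation and its control, a list of 39 names of which 38 were in the table and tested, moved both ways. The list holds elongation, termination and signalling genes, and also genes whose products act on initiation factors, such as Pdcd4, Abcf1 and Ppp1r15a. In separated embryos 3 rose (Etf1, Rps6kb2 and Rps6) and 3 fell (Eef2k, Mtor and Ppp1r15a), with a median log2 fold change of 0.36, where 11.1% of all genes passed and their median was -0.15. In intact embryos 10 rose (Eef1a1, Eef1g, Eef2, Etf1, Rps6kb2, Rps6, Akt1s1, Gigyf2, Abcf1 and Mars1) and 4 fell (Eef2k, Pdcd4, Ppp1r15a and Tpt1), with a median of 0.65, where 10.4% of all genes passed and their median was 0.00. With 1 embryo left out, the separated call was kept in 5 of 19 fits for Mtor, 6 of 19 for Eef2k and 18 of 19 for Etf1. The separated calls of Mtor and Eef2k were also lost without batch 2 and with no filter on low counts. That of Etf1 was lost with no filter and with the compared groups fitted alone. In intact embryos the call was kept in 3 of 19 fits for Mars1, 5 of 19 for Akt1s1 and 9 of 19 for Rps6kb2. It was kept in 15 of 19 for Gigyf2, in 16 of 19 for Eef1g, Etf1 and Eef2k, and in 18 of 19 for Abcf1. The other intact calls were kept in all 19. The intact calls of Mars1, Akt1s1, Rps6kb2 and Eef1g were also lost without batch 2. Akt1s1 averaged 2.67 CPM in intact 4-cell and 0 CPM in intact 2-cell embryos, and Rps6kb2 7.03 and 0.0199 CPM. Eef1a1, the factor that brings aminoacyl-tRNA to the elongating ribosome, averaged 206 ± 60.4 CPM in intact 4-cell embryos and 54.7 ± 20.1 CPM in intact 2-cell embryos (SD, n = 4 and n = 5), a log2 fold change of 1.92 ± 0.33 (adjusted p = 0.00109). Rps6, the ribosomal protein phosphorylated by the S6 kinases, averaged 720 ± 176 CPM in intact 4-cell and 240 ± 94.4 CPM in intact 2-cell embryos (1.59 ± 0.29, adjusted p = 0.00161). Eef2, the translocase, averaged 133 ± 12.3 CPM and 15.0 ± 8.08 CPM in those groups (3.15 ± 0.71, adjusted p = 0.0076), and Abcf1, an ATPase that binds eIF2, averaged 250 ± 11.6 CPM and 86.6 ± 33.9 CPM (1.53 ± 0.35, adjusted p = 0.009, and 0.0501 without intact 4-cell embryo 5).

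Of the genes that fell in intact embryos, Ppp1r15a and Pdcd4 had the smallest p. Ppp1r15a, which directs a phosphatase to eIF2 alpha, averaged 11.0 ± 4.83 CPM in intact 4-cell and 76.2 ± 18.9 CPM in intact 2-cell embryos, a log2 fold change of -2.79 ± 0.65 (adjusted p = 0.00994). Pdcd4, an inhibitor of eIF4A, averaged 8.49 ± 5.01 CPM in intact 4-cell and 56.3 ± 30.9 CPM in intact 2-cell embryos, a log2 fold change of -2.72 ± 0.65 (adjusted p = 0.0112) that did not pass with no filter on low counts. Eef1a1 alone of the list differed between batches, at 1328 ± 41.5 CPM in batch 2 (n = 2) and 164 ± 28.9 CPM in batch 1 (n = 3) of the separated 4-cell embryos, a log2 fold change of 3.02 ± 0.45 (adjusted p = 0.000581).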

How the data were processed

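The authors deposited expected counts per gene for 39 libraries. Per the submitters' processing notes, reads were handled with Trim Galore 0.6.10, STAR 2.7.3a and RSEM 1.2.28 on GRCm38, also called mm10. The annotation and strandedness are not given in the sources used here. Of the nonzero deposited values 12.6% are not whole, and all were rounded. Blastomere counts were then summed per embryo, which weighs a deeper sister more.

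All 19 embryos entered 1 quasi-likelihood fit in edgeR 4.0.16 (R 4.3.3). TMM gave the scaling, filterByExpr left 14119 genes, and the model held a mean for each of 4 groups plus a batch effect. Benjamini-Hochberg adjustment ran over those genes, with a threshold of 0.05. Contrasts covered stage in separated and in intact embryos, separation at either stage, the difference of the stage changes, and batch 2 over batch 1 among separated 4-cell embryos. Standard errors were taken from the F statistic, as the size of a log2 fold change divided by its square root. Biological variation between embryos was wide, with a coefficient of 1.43 and 14 residual degrees of freedom. The code was tested on simulated data.

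Genes, role lists, marker lists and tests were chosen with earlier results of these data known. All 56 genes are named. Members past the threshold are printed embryo by embryo, up to 3 more per role list with the smallest p in intact embryos are printed for each intact embryo, and the rest mostly as means; Eif3c and Eif4e1b were given embryo by embryo after their values were seen. From the list of other translation genes, up to 6 with the smallest p in intact embryos are given. Alternatives were DESeq2 1.42.0 and its size factors, other filters, a replicate block, other sets of embryos and, chosen after seeing the data, sisters scaled to equal totals. Blastomere spread used log2 CPM with a prior count of 2. Shared sequence was counted as 50-base windows of GENCODE M21 transcripts, and promoters come from RefSeq on GRCm38.p6.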

Additional observations from a re-analysis of the deposited data

Results flagged for a closer look

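In 123 groups of 4 or 5 embryos, the highest or lowest value of a gene was compared with the gap to its nearest neighbour as a share of the whole range. The rule flags about 1 in 20 groups of normally distributed values, a rate not checked for these values, some of which are 0. A group with a count in 1 embryo alone is always flagged. That holds for Eif2ak2 in the separated 2-cell and intact 4-cell groups and for Eif4ebp3 in the intact 2-cell group. In all, 6 groups were flagged. Eif2ak2 gave 3 of them: 6.44 CPM in embryo 2 of the separated 4-cell group, where the others had 0 to 1.31 CPM, 15.3 CPM in embryo 3 of the separated 2-cell group, where the others had 0, and 4.65 CPM in embryo 4 of the intact 4-cell group, where the others had 0. Eif4ebp3 gave 2: 4.63 CPM in embryo 4 of the separated 4-cell group, where the others had 0 to 1.23 CPM, and 3.32 CPM in embryo 1 of the intact 2-cell group, where the others had 0. Eif5 stood at 1418 CPM in embryo 5 of the intact 2-cell group, where the others had 794 to 923 CPM.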

How the results depend on the processing

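Of 1441 results under alternatives, 1126 kept their direction and their side of the threshold, or a count within 1.5 times, 243 kept the direction and lost the threshold, 72 counts moved further and 0 reversed. DESeq2 called 3210 genes for stage in separated embryos against 1568 and 3046 in intact embryos against 1469, with 15 members in intact embryos (12 higher and 3 lower) against 8. It called 492 genes for separation at the 2-cell stage, 379 at the 4-cell stage, 517 for the interaction and 1276 for batch, with 6 members for batch. With no low-count filter, 104, 11 and 38 genes passed for separation at the 2-cell stage, at the 4-cell stage and for the interaction, and 1 member, Eif3e, for separation at the 2-cell stage. With a mean CPM of at least 10, 5, 1 and 1 genes passed there, and 464 genes and 5 members for batch. With the compared groups alone, 0 genes passed for separation at the 2-cell stage and 478 genes and 8 members (7 higher, 1 lower) for batch. Without batch 2, 5 members passed in intact embryos and 0 genes for separation at the 2-cell stage. For batch, 5 members passed with DESeq2's size factors and 5 with sisters scaled to equal totals, under which 11 members passed in separated and 10 in intact embryos. Over all genes, the median log2 fold change was -0.13 in intact embryos, -0.21 in separated embryos and 0.38 for batch with DESeq2's size factors, and 0.00, -0.15 and 0.13 with TMM. The cause of these changes was not tested, and some of these fits also hold fewer embryos or genes.

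With each embryo left out in turn, 3 to 9 members and 811 to 1653 genes passed for stage in separated embryos, with 3 members without 4-cell embryo 4 and 4 without embryo 3. For stage in intact embryos 4 to 13 members and 798 to 1650 genes passed, with 4 members without 2-cell embryo 1 or 4-cell embryo 1, 3 or 5, 5 members without intact 4-cell embryo 4 or separated 4-cell embryo 6 or 7, and 13 without separated 2-cell embryo 3. For separation the ranges were 0 to 7 genes at the 2-cell stage and 0 to 1 at the 4-cell stage, for the interaction 0 to 2 genes, and 0 members passed in each of these fits. For batch 1 to 5 members and 64 to 337 genes passed, with 1 member without separated 4-cell embryo 6 or 7 and 5 without separated 2-cell embryo 3. Where a group of the batch contrast is left with 1 embryo, that embryo is assumed to vary like the others.

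Replicate numbers were treated as not pairing the embryos, since the labels do not say what they mark. Over 21 pairs of same-numbered embryos the correlation of deviations ran from -0.074 to 0.046. Of these, 0 were over 0.1, and 3 embryos correlated best with their own number. With so few embryos per group, this cannot show that same-numbered embryos had no shared origin. With the replicate block, on batch 1 embryos, 727 genes and 3 members passed for stage in intact embryos, 727 genes and 6 members in separated embryos, and 0 genes for separation at the 2-cell stage. Under the block Eif3b, Eif3m, Eif4a1, Eif4a3 and Eif4g1 did not pass in intact embryos, and Eif3b, Eif3m, Eif4a3 and Eif5a did not in separated embryos, where Eif4a1 did. Kinase and eIF4E binder genes have blastomeres without a count, as do Eif4e1b, Eif5a2, Eif2d, Eif2b2, Eif3b and others. The part of depth in this was not tested, and a fold change against no counts is not a bound. The spread between sisters was 0.32 in batch 2, 0.80 in batch 1 and 1.20 at the 2-cell stage with a prior count of 0.5.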
